A study of Mus musculus with 6 samples.

Results

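The 10 genes described here mark GABAergic interneurons, the inhibitory neurons of the hippocampus, and were followed in mice that express a mutant BRAF kinase in excitatory neurons. They were chosen by symbol from the 20620 genes of the count table: the GABA-synthesising enzymes Gad1 and Gad2, the calcium-binding proteins Pvalb and Calb2, the secreted glycoprotein Reln, the transcription factors Lhx6, Dlx1, Dlx6 and Sp8, and Adarb2. Neuropeptide markers of the same cells were kept out of the 10, but some, such as Cort, Tac1 and Cck, are counted in the further lists below. Each of the 10 was measured, and each passed the filter on low counts that left 20604 genes for testing. Hippocampal RNA was sequenced from 6 male C57BL/6J mice, 3 in each group and 1 library for each. The n-Braf mice carried the genotype Braf Q241R/+ with a CaMKII-Cre transgene and were 33, 32 and 34 weeks old. The control mice carried Braf Q241R Neo/+, the same mutant allele with its Neo cassette and without Cre, and were 32, 32 and 31 weeks old. Both groups are therefore heterozygous for the Q241R allele, and wild-type hippocampus was not analysed here. Cre, loss of the cassette and expression of the mutant come together in n-Braf and cannot be told apart. In humans, activating BRAF mutations of this kind cause cardio-facio-cutaneous syndrome, in which RAS-ERK signalling is overactive.

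GABAergic interneurons make the inhibitory transmitter GABA from glutamate with the enzymes GAD67, encoded by Gad1, and GAD65, encoded by Gad2. They arise in the embryonic ventral forebrain, where Dlx transcription factors set the GABAergic fate. Cells from the medial ganglionic eminence depend on Lhx6 and include parvalbumin cells, while cells from the caudal ganglionic eminence express Adarb2, and many of them Sp8, Calb2 or Reln. The CaMKII promoter that drives Cre is used for excitatory neurons and is not meant to act in interneurons. The comparison therefore addresses interneuron transcripts in a hippocampus whose excitatory neurons carry the active mutant. In whole tissue, fewer cells of a type and less RNA per cell cannot be told apart.

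The libraries held between 30152839 and 31832245 assigned counts in n-Braf and between 25227112 and 27608256 in controls. Levels are given in CPM, the counts of a gene scaled to the TMM-adjusted library total. Braf itself averaged 191 ± 12.1 CPM for n-Braf mice and 119 ± 4.18 CPM for control mice (SD, n = 3 each) without overlap, and its log2 fold change of 0.69 (SE 0.07) had an edgeR quasi-likelihood adjusted p of 0.0533. In the authors' deposited table the same fold change of Braf has an adjusted p of 2.13e-08. Camk2a, whose promoter drives Cre, averaged 2489 ± 384 CPM for n-Braf mice and 2221 ± 102 CPM for control mice (SD, n = 3 each). Controls 1 and 2 stood apart through choroid plexus markers, whose 12 measured genes summed to 3522 and 1987 CPM there, to 139 CPM in control 3 and to between 89.9 and 107 CPM in n-Braf. Against control 3 alone, the log2 fold changes of the members that kept their sign were nearer 0 than with all controls, at 0.04 for Pvalb, -0.08 for Calb2, -0.13 for Dlx1, -0.12 for Dlx6 and 0.14 for Reln. The values of the 5 members that turned sign are given with each gene or in the closing section.

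The 4 short sequences printed here show where letters known to be bound by relevant transcription factors occur just before the start of a member gene, and they come from RefSeq promoters on GRCm38.p6. The letters CCGGAA, the core read by ETS factors, which ERK phosphorylates, were searched on both strands of the 250 bases before each start. They occurred in 3 of the 13 promoters listed for 8 of the members, those of Gad2, Pvalb and Reln, and in 12.03% of 32851 promoters of all genes. The letters TAATTA, a core read by homeodomain proteins such as the DLX family and LHX6, which read the same on both strands, occurred in 2 of the 13, those of Adarb2 and Sp8, and in 4.84% of all promoters. Each window has 30 bases and is written along the strand of its gene, with the matched letters in capitals. The windows lie at chr2:22622170-22622199 on the plus strand for Gad2, chr15:78206479-78206508 on the minus strand for Pvalb, chr5:22344873-22344902 on the minus strand for Reln and chr13:8202803-8202832 on the plus strand for Adarb2. In GENCODE M21 all 4 lie outside the gene, by 6, 79, 171 and 34 bases, and outside its exons. The match for Sp8 lies inside that gene, in an intron, and is not printed. A match is a string of letters and not a site shown to be bound.
Gad2: ctggacagcgcgTTCCGGcagaagcagacc
Pvalb: gagtacctgacaCCGGAAggggagggggcc
Reln: gcagccctgcccTTCCGGgcggagcgggcc
Adarb2: tgtgattggatcTAATTAgactttgcggca

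Per kilobase of merged exon, the level of the 10 genes spanned a wide range over the 6 libraries. The level of Gad1 was 23.3 ± 1.57 CPM per kilobase and that of Gad2 was 19.5 ± 1.54 (SD, n = 6), the highest and next highest of the members. Pvalb followed at 9.66 ± 1.17 CPM per kilobase and Calb2 at 8.52 ± 1.38. Reln and Adarb2 had nearly equal levels of 4.66 ± 1.57 and 4.65 ± 0.475 CPM per kilobase. Among the transcription factors, Dlx1 was at 2.64 ± 0.616, Lhx6 at 2.26 ± 0.369, Dlx6 at 0.941 ± 0.206 and Sp8 at 0.148 ± 0.0298 CPM per kilobase. The ranges of neighbours in this order overlapped for Pvalb and Calb2, Calb2 and Reln, Reln and Adarb2, and Dlx1 and Lhx6, so the order within those pairs is not larger than the spread between libraries. Gad1 lay above Gad2 without overlap, and Dlx6 above Sp8. Merged exon length is an approximation, since the lengths behind the expected counts are not given.

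**Figure D1:**
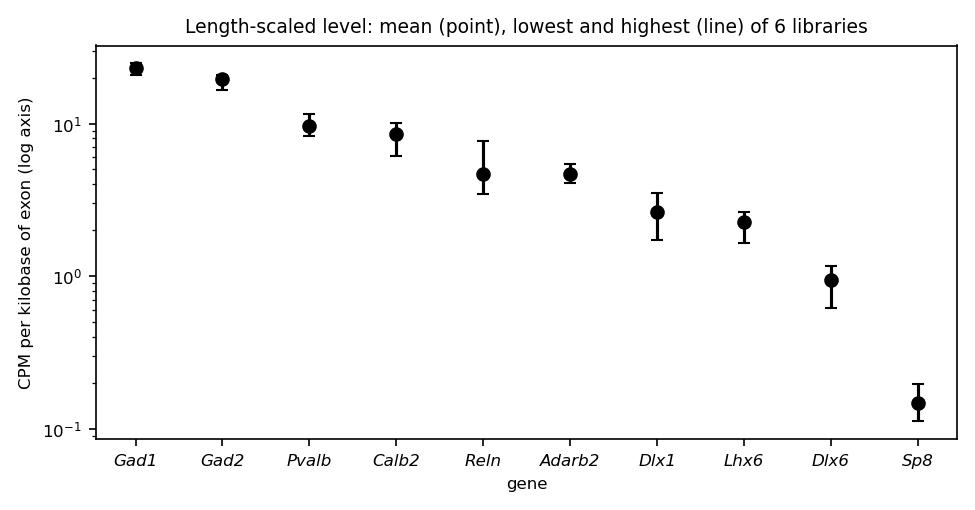
Length-scaled level of the 10 interneuron genes on a log axis, in CPM per kilobase of merged exon; points are means and lines run from the lowest to the highest of 6 libraries. The level of Gad1 at 23.3 and that of Sp8 at 0.148 are the ends of the order.

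The GABA-synthesising enzymes showed no difference between the groups beyond the spread of the libraries. Gad1 lies on chromosome 2 at 70553072 to 70602014 of GRCm38, on the plus strand. Its level was 177, 189 and 184 CPM in n-Braf 1, 2 and 3, and 159, 169 and 189 CPM in controls 1, 2 and 3. The groups overlapped because control 3 lay above every n-Braf library, while controls 1 and 2 lay below all of them. The log2 fold change of Gad1 was 0.09 (SE 0.08, 95% interval -0.08 to 0.26, edgeR quasi-likelihood adjusted p = 0.900), which bounds the n-Braf level between 0.944 and 1.20 times the control level. Gad2, on chromosome 2 at 22622205 to 22693874, plus strand, had 115, 121 and 121 CPM in n-Braf and 98.1, 112 and 122 CPM in controls. It followed the same order of libraries at both ends, with control 3 highest and control 1 lowest. Its log2 fold change was 0.10 (SE 0.08, 95% interval -0.09 to 0.29, edgeR adjusted p = 0.892). Leaving out control 3 gave 0.16 for Gad1 and 0.17 for Gad2, with no overlap between the groups. Without that library the groups did not overlap in 22.1% of all genes. Leaving out control 1 gave 0.03 and 0.02. Set against control 3 alone, the fold changes were -0.05 for Gad1 and -0.04 for Gad2 on the log2 scale, and with the choroid plexus markers as a covariate they were -0.06 and -0.08. Among the 45 pairs of members this pair was the closest, with a root-mean-square difference of 0.034 between their log2 deviations from the 6-library mean. Within each library the log2 ratio of Gad1 to Gad2 counts was 0.63 ± 0.019 in n-Braf and 0.64 ± 0.055 in controls (SD, n = 3 each).

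**Figure D2:**
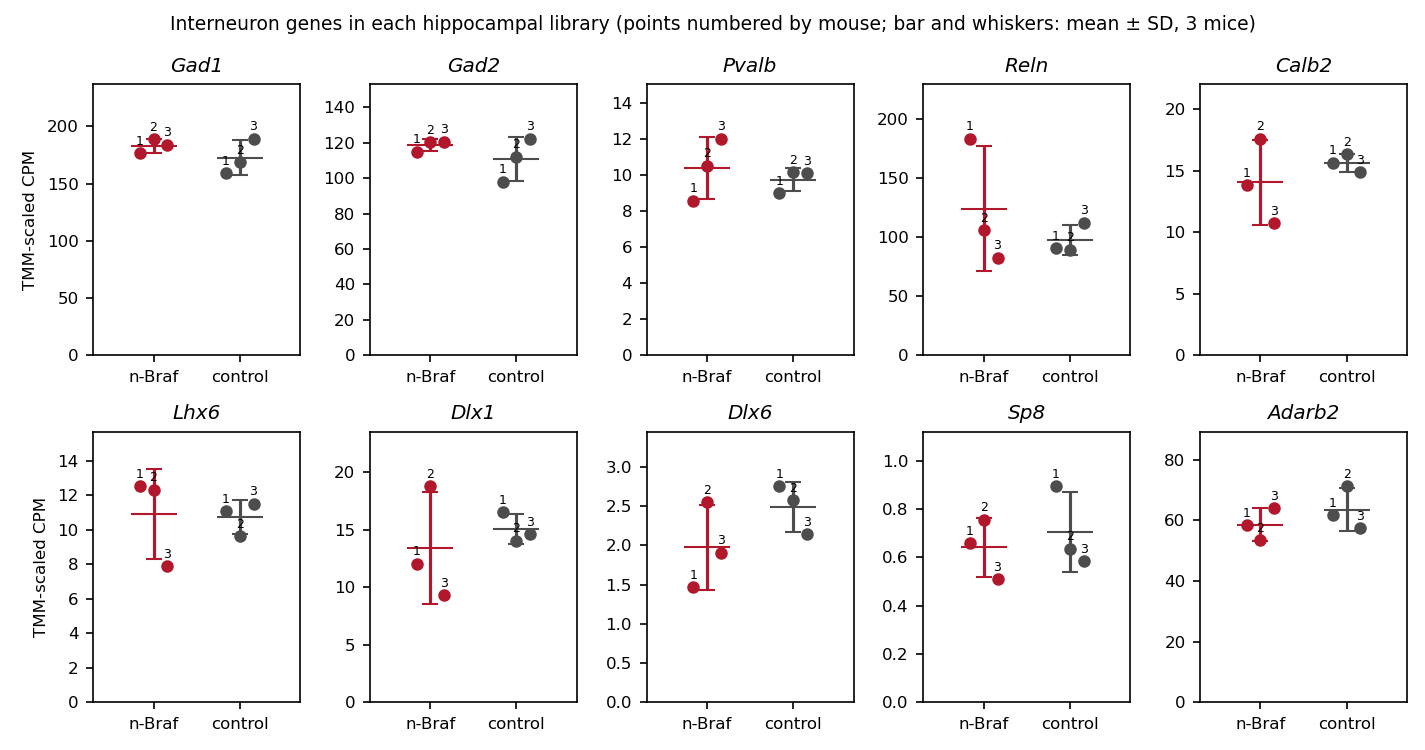
TMM-scaled CPM of the 10 genes in each library, 1 panel per gene with its own axis from 0; points are mice, labelled by number, and bars with whiskers are mean ± SD of 3 mice. In every panel the n-Braf and control points overlap, and n-Braf 1 stands far above the other 5 libraries for Reln, at 183 CPM.

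Of the calcium-binding proteins, Pvalb marks fast-spiking basket and axo-axonic cells. The gene lies on chromosome 15 at 78191114 to 78206400, minus strand. Its level was 8.57, 10.5 and 12.0 CPM in n-Braf and 8.99, 10.2 and 10.1 CPM in controls. The n-Braf libraries held both the lowest and the highest value, n-Braf 1 and n-Braf 3, and the controls lay between them. Pvalb had a fold change of 0.09 on the log2 scale (SE 0.14, 95% interval -0.23 to 0.41, edgeR adjusted p = 0.959). As a log2 ratio to Gad1 in the same library, Pvalb was at -4.16 ± 0.214 in n-Braf and -4.14 ± 0.0885 in controls (SD, n = 3 each). Calb2, which encodes calretinin, marks interneurons that contact other interneurons and is also expressed by mossy cells and newborn granule neurons of the mouse dentate gyrus. Its gene lies on chromosome 8 at 110137502 to 110168210, minus strand, and its level was 13.8, 17.6 and 10.7 CPM in n-Braf and 15.7, 16.4 and 14.9 CPM in controls. Here too the n-Braf libraries spanned the controls, with n-Braf 2 highest and n-Braf 3 lowest. On the log2 scale the fold change of Calb2 was -0.15 (SE 0.16, 95% interval -0.52 to 0.22, edgeR adjusted p = 0.923). Leaving out n-Braf 2 gave -0.35, which passed an unadjusted p of 0.05 by edgeR's test, and leaving out n-Braf 3 gave 0.0039. Markers of mossy cells, 5 of 5 measured, summed to between 45.4 and 46.4 CPM in n-Braf and between 42.2 and 50.2 CPM in controls. Most of that sum was Ajap1, at 26.4 to 29.3 CPM in n-Braf and 24.3 to 33.7 CPM in controls. The mean log2 deviation of the 5 was 0.21, 0.05 and -0.09 in n-Braf 1, 2 and 3, and 0.12, -0.14 and -0.16 in controls 1, 2 and 3. Markers of newborn granule neurons, 5 of 7 measured, summed to between 254 and 351 CPM in n-Braf, with n-Braf 3 lowest, and between 266 and 332 CPM in controls. That sum rests largely on Stmn1, which was at 112 to 171 CPM in n-Braf and 114 to 163 CPM in controls. The part of either cell type in the Calb2 values was not tested.

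Reln had the largest difference in means of the 10, and that difference rested on a single library. Reelin is a secreted glycoprotein made by dendrite-targeting interneurons and neurogliaform cells of the adult hippocampus and by Cajal-Retzius cells. The gene lies on chromosome 5 at 21884454 to 22344702, minus strand. Its level was 183, 106 and 82.5 CPM in n-Braf and 90.3, 89.3 and 112 CPM in controls. n-Braf 1 was highest of the 6 libraries, n-Braf 3 was lowest, and n-Braf 2 lay among the controls. Reln had a log2 fold change of 0.35 (SE 0.25, 95% interval -0.21 to 0.91, edgeR adjusted p = 0.859). Against control 3 alone the value was 0.14. Leaving out n-Braf 1 gave -0.05, and leaving out n-Braf 3 gave 0.57, which passed an unadjusted p of 0.05 but not the adjustment (edgeR adjusted p = 0.586). Markers of the neighbouring neocortex, whose upper layer also makes reelin, were highest in the same library. Their mean log2 deviation over 10 genes was 0.31, 0.13 and -0.19 in n-Braf 1, 2 and 3, and -0.15, -0.21 and 0.11 in controls 1, 2 and 3. Of the 10, Lamp5 is also counted below among interneuron genes of the Adarb2 classes, and its own deviation was highest in n-Braf 1, at 0.33. The list therefore does not measure neocortex alone. In both Reln and this list n-Braf 1 stood highest, and n-Braf 3 and control 2 held the lowest places. With the mean of those markers as a covariate, a fit in which n-Braf 1 is the highest library in both measures, the log2 fold change of Reln was -0.02. Of 6 Cajal-Retzius markers, Trp73 and Ebf3 were measured, at a summed 2.08 to 2.45 CPM in n-Braf and 1.64 to 4.998 CPM in controls. Trp73, the more abundant of them, was at 1.85, 1.57 and 2.08 CPM in n-Braf and 3.92, 3.89 and 1.28 CPM in controls. The part of either cell source in the Reln values was not tested.

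The transcription factors varied more among the n-Braf libraries than among the controls, except Sp8, and did not separate the groups. Lhx6, a LIM-homeodomain factor that specifies parvalbumin and somatostatin cells, lies on chromosome 2 at 36081953 to 36105408, minus strand. Its level was 12.5, 12.3 and 7.90 CPM in n-Braf and 11.1, 9.65 and 11.5 CPM in controls. n-Braf 3 was lowest, and n-Braf 1 and 2 lay above every control. For Lhx6 the log2 fold change was 0.03 (SE 0.18, 95% interval -0.38 to 0.43, edgeR adjusted p = 0.994), and 0.21 when n-Braf 3 was left out. Dlx1, which supports the survival of dendrite-targeting interneurons, lies on chromosome 2 at 71528113 to 71533981, plus strand. It was at 12.0, 18.8 and 9.33 CPM in n-Braf and 16.5, 14.1 and 14.6 CPM in controls. n-Braf 2 was again highest and n-Braf 3 lowest, as for Calb2. For Dlx1 the log2 fold change was -0.17 (SE 0.22, 95% interval -0.67 to 0.33, edgeR adjusted p = 0.948). Leaving out n-Braf 2 gave -0.50, which passed an unadjusted p of 0.05 but not the adjustment (edgeR adjusted p = 0.939). The antisense gene Dlx1as shares 335 exonic bases with Dlx1, and the strand setting of the counting is not given, so reads of the pair may be mixed. Dlx1as was at 12.3 ± 0.918 CPM in n-Braf, against 10.6 ± 1.45 CPM in controls (SD, n = 3 each), and the log2 ratio of Dlx1 to it was 0.063 ± 0.456 in n-Braf and 0.51 ± 0.326 in controls.

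Dlx6 and Sp8 were the members with the fewest reads. Dlx6, a DLX factor of the ventral forebrain whose locus also makes the long non-coding RNA Dlx6os1, lies on chromosome 6 at 6863334 to 6868568, plus strand. It had 47, 81 and 56 counts in n-Braf and 74, 69 and 55 counts in controls, which are 1.47, 2.55 and 1.91 CPM against 2.76, 2.58 and 2.14 CPM. n-Braf 1 and n-Braf 3 lay below the controls, and n-Braf 2 among them. The log2 fold change of Dlx6 was -0.34 (SE 0.25, 95% interval -0.91 to 0.23, edgeR adjusted p = 0.869). It was the only member whose fold change kept its sign in all 21 alternative settings, from -0.56 to -0.05. Dlx6os1 was at 21.7 ± 1.85 CPM in n-Braf, against 19.8 ± 0.409 CPM in controls (SD, n = 3 each), a log2 fold change of 0.14 (SE 0.09). It shares no exonic bases with Dlx6, whereas Dlx6os2 shares 104. Sp8, a zinc-finger factor of caudally derived interneurons and of neuroblasts bound for the olfactory bulb, lies on chromosome 12 at 118846329 to 118852576, plus strand. It had 21, 24 and 15 counts in n-Braf and 24, 17 and 15 counts in controls, or 0.657, 0.755 and 0.511 CPM against 0.895, 0.636 and 0.584 CPM. The pooled spread of its log2 values within groups, 0.28, was no larger than the 0.33 that counting error alone gives at this depth. The log2 fold change of Sp8 was -0.13 (SE 0.34, 95% interval -0.91 to 0.64, edgeR adjusted p = 0.981), and the interval leaves n-Braf levels between 0.532 and 1.56 times the control level possible.

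Adarb2 encodes a brain protein of the adenosine deaminase family that lacks editing activity, and its RNA marks interneurons of caudal origin. The gene lies on chromosome 13 at 8202866 to 8768747, plus strand. Its level was 58.4, 53.4 and 64.0 CPM in n-Braf and 61.7, 71.3 and 57.4 CPM in controls. The highest value was in control 2 and the lowest in n-Braf 2, and the groups overlapped. Adarb2 had a log2 fold change of -0.12 (SE 0.10, 95% interval -0.33 to 0.10, edgeR adjusted p = 0.892). Age differed slightly between the groups, and with age as a covariate the log2 fold change of Adarb2 was -0.32, which passed an unadjusted p of 0.05 but not the adjustment (edgeR adjusted p = 0.617). Against control 3 alone it was 0.03. The log2 ratio of Lhx6 to Adarb2, which sets medially against caudally derived cells, was -2.22, -2.11 and -3.02 in n-Braf and -2.48, -2.89 and -2.32 in controls. The highest 2 ratios and the lowest were all in n-Braf, so the groups overlapped.

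**Figure D3:**
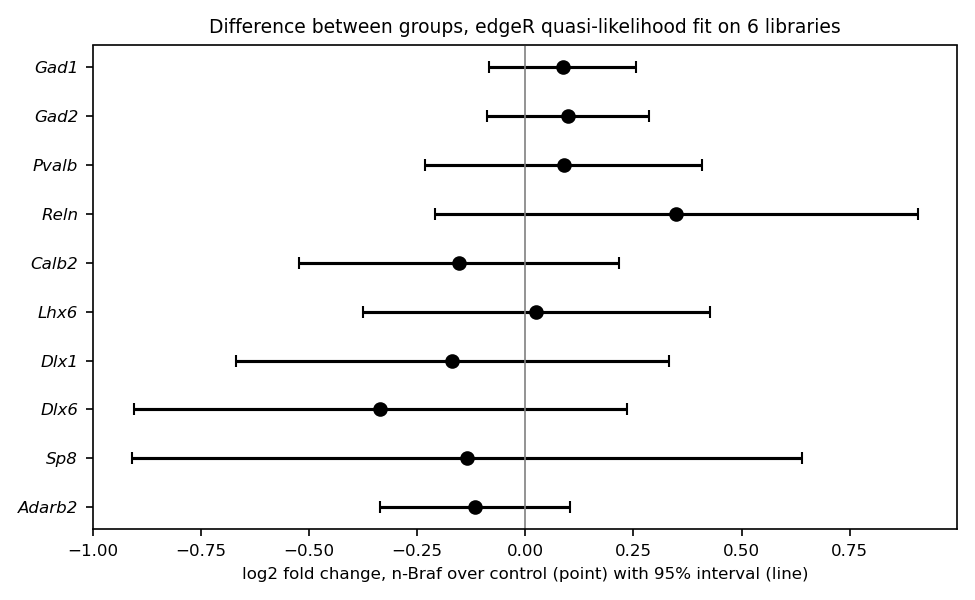
Log2 fold change of n-Braf over control for each of the 10 genes, with 95% intervals from edgeR's quasi-likelihood fit. Every interval includes 0, and the intervals of Gad1 and Gad2 are the narrowest while those of Dlx6, Sp8 and Reln are the widest.

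Counted over the 10 genes, 5 had a fold change above 0 and 5 below it, and their median on the log2 scale was -0.05, beside -0.0042 over all 20604 genes tested. By edgeR's quasi-likelihood test 0 of the 10 passed an adjusted p of 0.05, and 0% of all genes tested did. At an unadjusted p of 0.05 the count was again 0 of 10, against 6.82% of all genes, and DESeq2 and limma-voom also gave 0 of 10 at that p. The groups did not overlap in 0 of the 10, against 11.5% of all genes. With 10 genes, counts of 0 are close to those backgrounds. The largest change that the 95% intervals leave possible in the upward direction ran from 1.07 times for Adarb2 to 1.88 times for Reln. In the downward direction it ran from 0.944 times for Gad1 to 0.532 times for Sp8. In the authors' deposited table the same 10 genes have adjusted p-values of 0.9997, and log2 fold changes from -0.34 for Dlx6 to 0.35 for Reln.

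The libraries differed from each other in ways that the groups do not describe. n-Braf 3 had the lowest value of 5 of the 10 genes: Reln, Calb2, Lhx6, Dlx1 and Sp8. n-Braf 1, 2 and 3 lay above the 6-library mean in 3, 8 and 4 of the 10, and controls 1, 2 and 3 in 6, 5 and 7. The mean log2 deviation over the 10 was -0.01, 0.13 and -0.19 in n-Braf 1, 2 and 3, and 0.04, 0.01 and 0.02 in controls 1, 2 and 3. The spread over the 3 mice was larger in n-Braf than in controls for 6 of the 10 genes, Pvalb, Reln, Calb2, Lhx6, Dlx1 and Dlx6, and smaller for Gad1, Gad2, Sp8 and Adarb2. For Calb2 the SD of the log2 deviations was 0.36 in n-Braf and 0.067 in controls, and for Dlx1 it was 0.51 in n-Braf and 0.12 in controls (n = 3 each). Counting error alone gives 0.070 for Calb2 and 0.071 for Dlx1, so the control SD of Calb2 was no larger than that floor. The difference in spread was not tested. Calb2 and Dlx1 were the third closest pair of members, with a root-mean-square difference of 0.13, and Reln and Dlx6 were the farthest apart, at 0.64. Reln also had the largest SD over the 6 libraries, 0.42, and a large spread raises this measure. Markers of striatal projection neurons, another GABAergic population that expresses Gad1, Gad2 and DLX genes, were on average also lowest in n-Braf 3. Their mean log2 deviation over 7 measured genes was 0.31, 0.21 and -0.44 in n-Braf 1, 2 and 3, and 0.24, -0.26 and -0.07 in controls. The most abundant of them, Pde10a, was instead highest in n-Braf 3. Its level was 88.4, 88.7 and 91.2 CPM in n-Braf and 74.2, 83.5 and 83.3 CPM in controls. Gad1 and Gad2 also lay above their means in n-Braf 3, by 0.05 and 0.07 on the log2 scale. The summed level of the striatal list, which rests largely on Pde10a, was between 122 and 135 CPM in n-Braf and between 125 and 136 CPM in controls. The part of that list in the members' values was not tested.

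**Figure D4:**
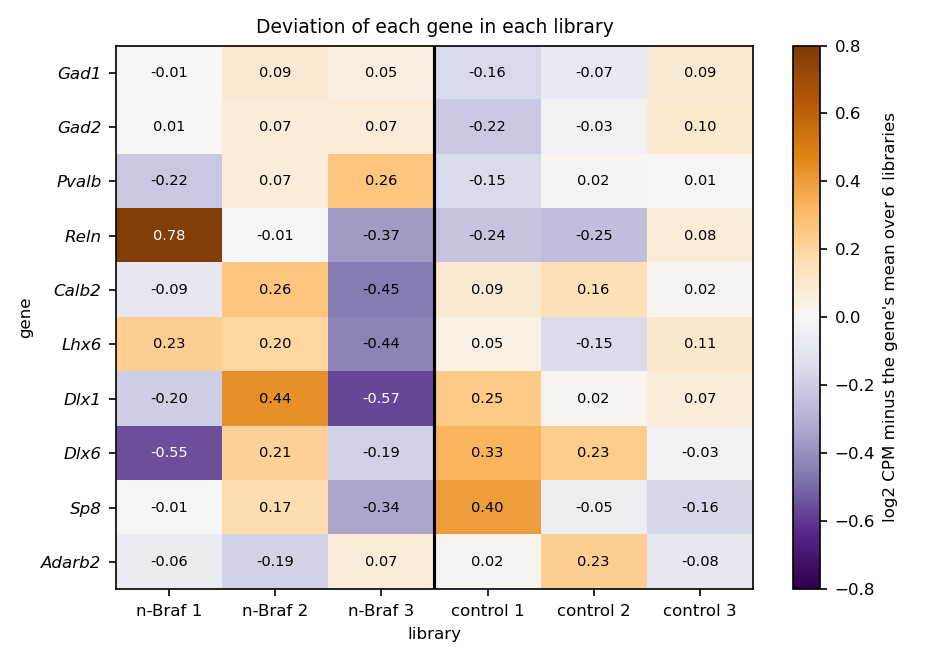
Log2 CPM of each gene in each library minus that gene's mean over the 6 libraries, with n-Braf left of the line and controls right of it; orange is above the mean and purple below. Reln in n-Braf 1 at 0.78 and Dlx1 in n-Braf 3 at -0.57 are the extremes, and 5 genes have their lowest value in n-Braf 3.

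Of 43 other genes, measured in 4 lists drawn up for interneurons, 0 passed an adjusted p of 0.05 by edgeR's quasi-likelihood test. The lists do not measure interneurons alone, since Slc6a11 is glial and Cck is also made by pyramidal cells. At an unadjusted p of 0.05 in that test 2 of the 43 passed, against 6.82% of all genes tested. Among the 5 genes of GABA transport and breakdown 4 fold changes were above 0 and 1 below (median 0.04 on the log2 scale). The glial GABA transporter Slc6a11 was at 52.8 ± 5.21 CPM in n-Braf, against 50.6 ± 3.32 CPM in controls (SD, n = 3 each). The GABA-degrading transaminase Abat was at 142 ± 9.67 CPM in n-Braf, against 136 ± 1.69 CPM in controls (SD, n = 3 each). Among 11 other interneuron transcription factors 3 were above 0 and 8 below, with a median of -0.08. Sp9, a close relative of Sp8, had 4.01, 4.22 and 3.13 CPM in n-Braf and 4.29, 4.75 and 5.72 CPM in controls. Its n-Braf libraries all lay below the controls, while the groups did not overlap, in either direction, in 11.5% of all genes tested. The log2 fold change of Sp9 was -0.38 (SE 0.19, edgeR adjusted p = 0.782). Maf, a factor of medially derived interneurons, came out at -0.20 (SE 0.12) on the same scale, and Satb1, which matures somatostatin cells, at 0.16 (SE 0.13).

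Genes of the parvalbumin and somatostatin classes had 12 of 14 fold changes above 0 and a median log2 fold change of 0.13, and those of the Adarb2 classes 9 of 13 and a median of 0.03. Cort, which encodes the peptide cortistatin and had the smallest p of the 43, was at 2.44, 3.43 and 3.27 CPM in n-Braf and 1.49, 2.06 and 1.60 CPM in controls. Every n-Braf library lay above every control, and a lack of overlap in either direction was seen in 11.5% of all genes tested. The log2 fold change of Cort was 0.83 (SE 0.23, edgeR adjusted p = 0.543). The potassium channel Kcnc2 of fast-spiking cells had a log2 fold change of 0.21 (SE 0.09, edgeR adjusted p = 0.732), and Tac1, the substance P precursor, of 0.52 (SE 0.25, edgeR adjusted p = 0.763). In the Adarb2 classes Cck, which encodes cholecystokinin and is also made by pyramidal cells, was at 114, 92.2 and 104 CPM in n-Braf and 93.6, 86.4 and 90.7 CPM in controls. n-Braf 2 lay among the controls, and the log2 fold change was 0.20 (SE 0.08, edgeR adjusted p = 0.730). For the receptor kinase Kit the value was 0.21 (SE 0.12) and for the synuclein Sncg -0.47 (SE 0.26), and neither passed.

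**Figure D5:**
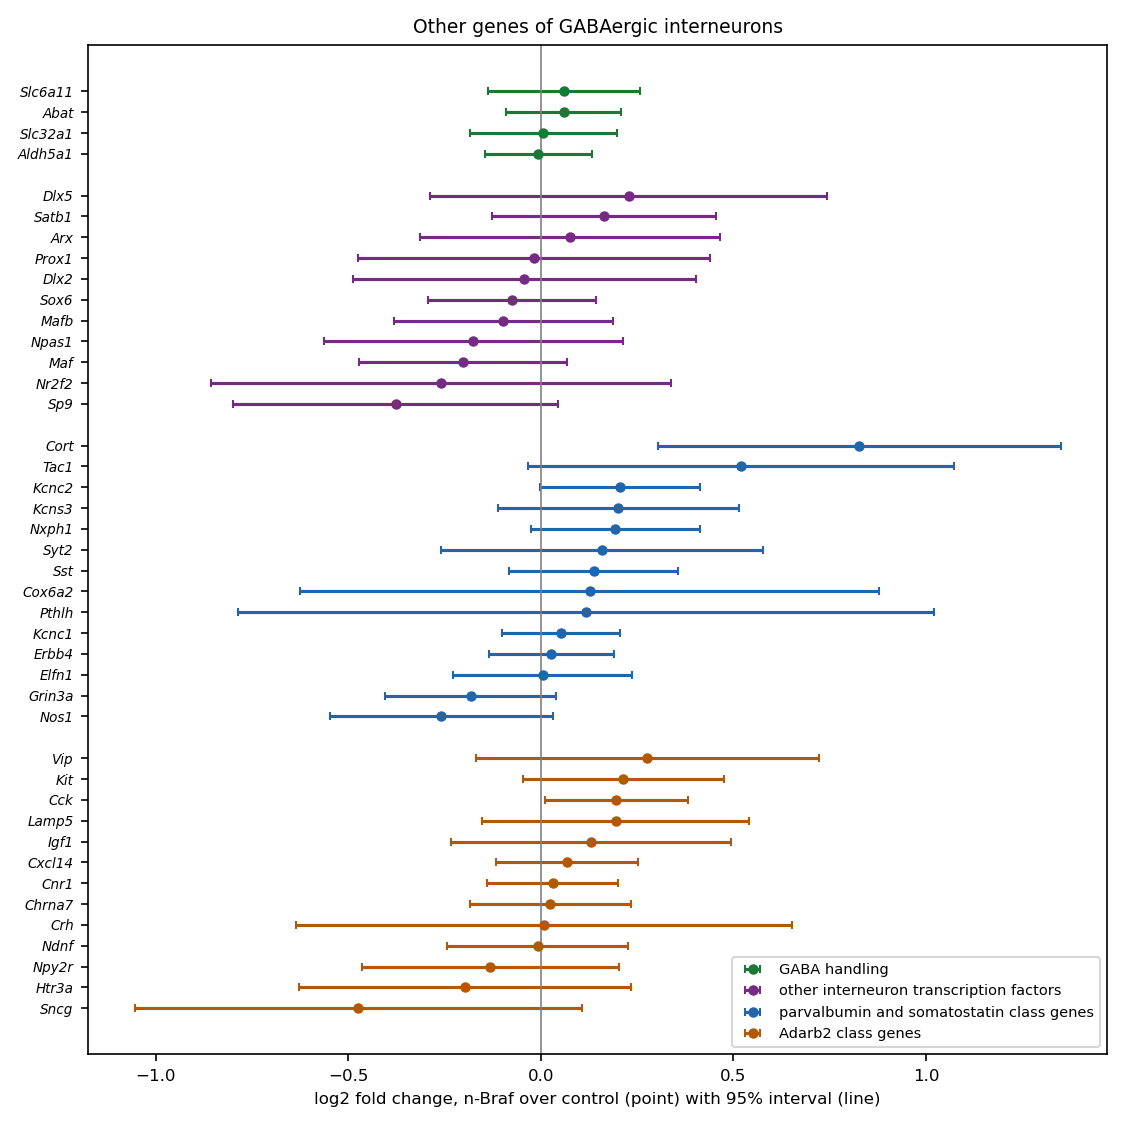
Log2 fold change of n-Braf over control, with 95% intervals, for 42 further genes in 4 lists drawn up for GABAergic interneurons, some of which other cells also express. The intervals of Cort and Cck lie above 0, no other interval excludes 0, and none of the 42 genes drawn passed the adjusted threshold. By edgeR's test 6.82% of all genes passed an unadjusted p of 0.05.

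Set beside excitatory neurons, the level of Gad1 did not differ between the groups beyond the spread. The log2 ratio of Gad1 to Slc17a7, the vesicular glutamate transporter of excitatory neurons, was -1.68, -1.41 and -1.40 in n-Braf and -1.59, -1.46 and -1.22 in controls. The lowest ratio was in n-Braf 1 and the highest in control 3. The 8 markers of excitatory neurons all had fold changes above 0 (median 0.17 on the log2 scale), as did 10102 of the 20604 genes tested. Of the 8 markers, 0 passed an adjusted p of 0.05 by edgeR's quasi-likelihood test. Their summed level was between 4145 and 5397 CPM in n-Braf and between 4083 and 4432 CPM in controls. Genes with a mean CPM of at least 10 and an SD at least that of the Gad1 and Gad2 mean were compared with that mean. The nearest library patterns were those of Lsm12, Wdr17, Baalc and Cacnb1. Their root-mean-square differences from the mean pattern of Gad1 and Gad2 were 0.025, 0.029, 0.032 and 0.035 on the log2 scale over 6 libraries, out of 4746 genes compared.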

How the data were processed

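The authors deposited 1 table of RSEM expected counts without normalization, with between 26.2% and 31.4% of the values in a library not whole. Per the submitters' processing notes, bcl2fastq 2.20, fastp 0.20.1, STAR, RSEM and edgeR 3.36.0 were used on mm10, and per the labels' protocols the libraries came from a stranded SMART-Seq kit. Neither the annotation release nor the strand setting is named in those sources. The authors' deposited table also gives a log2 fold change, a log2 CPM and raw and adjusted p-values for each gene.

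Expected counts were rounded, filtered with filterByExpr (minimum count 10), scaled by TMM and tested with edgeR 4.0.16 quasi-likelihood in R 4.3.3, with group as the only term and Benjamini-Hochberg adjustment over 20604 genes. Intervals come from the SE and the fit's degrees of freedom. Deviations use log2 CPM with a prior count of 2. DESeq2 1.42.0 and limma-voom (limma 3.58.1) were alternatives. The fit was tested on simulated data. GENCODE M21 (GRCm38, called mm10 elsewhere) gave coordinates and exon lengths.

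The members and gene lists were chosen with earlier results of these data known. Named genes are the members, Braf and Camk2a, the 3 smallest unadjusted p-values of each further interneuron list, the most abundant marker of another cell type where it bears on a result, and the 4 nearest patterns among genes with a mean CPM of at least 10 and an SD at least that of the Gad1 and Gad2 mean. Of these, 1 gene is not reported here and is left out of the plot of further interneuron genes, though the counts and medians of its list include it. Dlx1as and Dlx6os1 were added as overlapping genes after their values were seen. Replicate numbers were not used to pair mice, since same-numbered libraries did not deviate together.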

Additional observations from a re-analysis of the deposited data

How the results depend on the processing

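Over 21 alternatives (other scalings, tools, filters, covariates, thresholds and left-out libraries, of which quasi-likelihood without legacy settings was added after the data were seen) 0 of the 10 members passed the adjusted threshold. All genes called numbered 79 with DESeq2 (29 higher, 50 lower), between 0 and 82 when a library was left out (82 without control 3), 3 without controls 1 and 2 together, 2 with the neocortical covariate, 2 at an adjusted p of 0.1 and 1 without legacy settings. Members at an unadjusted p of 0.05 numbered 1 with age as a covariate (6.79% of all genes) and 0 to 2 with a library left out (4.59% to 7.57%). Members not overlapping numbered 0 to 3 with a library left out (19.6% to 23.7% of all genes) and 2 against control 3 alone (47.6%). The median log2 fold change of the members was 0.16 with age. With the replicate block, whose pairing the data do not bear out (correlations of deviations for equal numbers of 0.10, -0.05 and -0.01), the median was -0.06 and 0 members or genes passed. Signs turned for 9 members, always without passing, and the cause was not tested. With age as a covariate the log2 fold changes were 0.14 (Calb2), 0.26 (Dlx1) and 0.0081 (Sp8). Against control 3 alone they were -0.0477 (Gad1), -0.0439 (Gad2), -0.0750 (Lhx6), 0.14 (Sp8) and 0.0290 (Adarb2). With the neocortical covariate they were -0.0238 (Reln) and -0.19 (Lhx6), and with the choroid plexus covariate -0.0640 (Gad1), -0.0753 (Gad2), -0.0387 (Lhx6), 0.24 (Sp8) and 0.0024 (Adarb2). With a library left out the ranges were -0.0482 to 0.57 (Reln), -0.0885 to 0.21 (Lhx6), -0.0335 to 0.21 (Pvalb), -0.35 to 0.0039 (Calb2), -0.50 to 0.0306 (Dlx1), 0.03 to 0.16 (Gad1), 0.02 to 0.17 (Gad2), -0.19 to -0.02 (Adarb2), -0.56 to -0.16 (Dlx6) and -0.27 to 0.0729 (Sp8). A fit on genes with a mean CPM of at least 1 dropped Sp8. Only for Sp8 was the spread pooled over both groups no larger than counting error.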
